A study of Mus musculus with 168 samples.

Results

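The comparison set cortex of heterozygous Q175 knock-in mice against cortex of heterozygous Q140 knock-in mice at 10 months of age, the longest and the next longest allele of a series of Htt knock-in mice. Its members were the libraries titled as Q175 or Q140 heterozygotes of that age, 8 a side, or 16 of the 168 cortex libraries of the series and of the 56 sequenced at 10 months. The Q175 mice carried a knock-in allele of Htt with a nominal 175 CAG repeats, and the Q140 mice a knock-in allele with a nominal 140 repeats, so the alleles lay 35 repeats apart. All 16 mice were C57BL/6 and kept a wild-type copy of Htt beside the knock-in copy, and each group held 4 females and 4 males. Q175 mice were caged with Q175 mice and Q140 mice with Q140 mice, so housing and allele cannot be told apart in this comparison. Flash-frozen cortex gave total RNA on Qiagen miRNeasy columns, RNA integrity was read on a Bioanalyzer, and polyA-selected RNA was sequenced on Illumina HiSeq machines. The same alleles at 6 and 2 months, 8 libraries each, served as comparisons in other animals, and the shorter alleles Q111, Q92, Q80 and Q20 and the wild type of 10 months placed the levels.

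Huntingtin is a large scaffold protein of vesicle transport, and an expanded CAG run near the start of its gene, read as glutamine, causes Huntington's disease, with earlier onset as the run lengthens. The disease strikes the projection neurons of the striatum first and then the cortex, where layered pyramidal neurons send glutamatergic axons to the striatum. Knock-in mice carry the expanded run in their own Htt gene under its own promoter, in every cell type that uses the gene, and in striatum and cortex of such mice the transcripts of signalling and identity genes of neurons are known to fall as repeats lengthen.

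The deposited estimated counts summed to between 31526324 and 39046572 in the Q175 libraries and between 30140637 and 41929027 in the Q140 libraries. Slc17a7, the vesicular glutamate transporter of cortical pyramidal neurons, lay between 875 and 956 CPM (the share of a library's counts, scaled by the TMM method) in Q175 and between 936 and 1030 CPM in Q140. The library of Q140 female 3 stood apart: its median Spearman correlation with the other 10-month libraries was 0.9858, against at least 0.9944 for every Q175 library, and 13.9% of its counts came from mitochondrial genes, against 9.94 to 11.7% in Q175. The summed level of 16 genes of choroid plexus and ependyma, which line the ventricles, was 19.4 to 108 CPM in Q175 and 46.8 to 2170 CPM in Q140. Of the 20 libraries among the 56 of that age in which this sum passed 300 CPM, 0 were Q175 and 5 were Q140 (females 1 and 3, males 1, 2 and 3). Results are therefore given also without Q140 female 3 and without the 20 libraries above 300 CPM. The labels do not say how libraries relate to animals, litters or days, so the p-values measure the spread between these libraries.

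The targeted gene did not pass the test between the alleles at 10 months. Summed over both copies, Htt (ENSMUSG00000029104, chr5:34761740-34912534 in GRCm38) had 131, 159 and 166 CPM as lowest, median and highest value in Q175 cortex and 97.3, 174 and 185 CPM in Q140 cortex. Most Q140 libraries lay above all Q175 libraries, but Q140 female 3 lay below every Q175 library, and the groups overlapped. The difference, Q175 minus Q140, was -0.07 ± 0.08 on the log2 scale (SE; edgeR's quasi-likelihood test, 2-sided, Benjamini-Hochberg adjusted p = 0.73), and -0.16 ± 0.06 without Q140 female 3 (adjusted p = 0.26). At 6 months, in other animals, Htt was lower in Q175 by -0.26 ± 0.04 (adjusted p = 1.5e-06), at an age when the alleles also differ in library series, as described further on.

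Across the genes, 542 of 17219 tested (3.15%) passed an adjusted p of 0.05 at 10 months, of which 152 were higher in Q175 (0.883%) and 390 lower (2.26%). The differences were small: the median log2 difference was 0.187 among the genes that rose and -0.31 among those that fell, against -0.002 over all genes tested. Only 5 of the genes that rose and 24 of those that fell differed by more than 2-fold, and 114 and 208 of them by less than 1.25-fold. The ranges of the 8 Q175 and 8 Q140 libraries did not overlap at 29 of the 152 and at 69 of the 390, against 110 of all 17219 genes tested (0.639%). Among the 542 genes, 517 were protein coding. Fewer cells of a type and less RNA per cell cannot be told apart in RNA of whole cortex, here and in every result that follows. Without Q140 female 3, 85 genes were higher and 276 lower, without Q175 female 1 90 and 261, and without the 20 libraries high in choroid plexus genes, which leaves 3 Q140 libraries, 17 and 66 (0.474% of 17498). The names of the 16 libraries carry a token from L1 to L8 whose meaning the labels do not give. With it as a term 44 genes were higher and 172 lower, and the groups share too few libraries of a token for values within one.

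**Figure D1:**
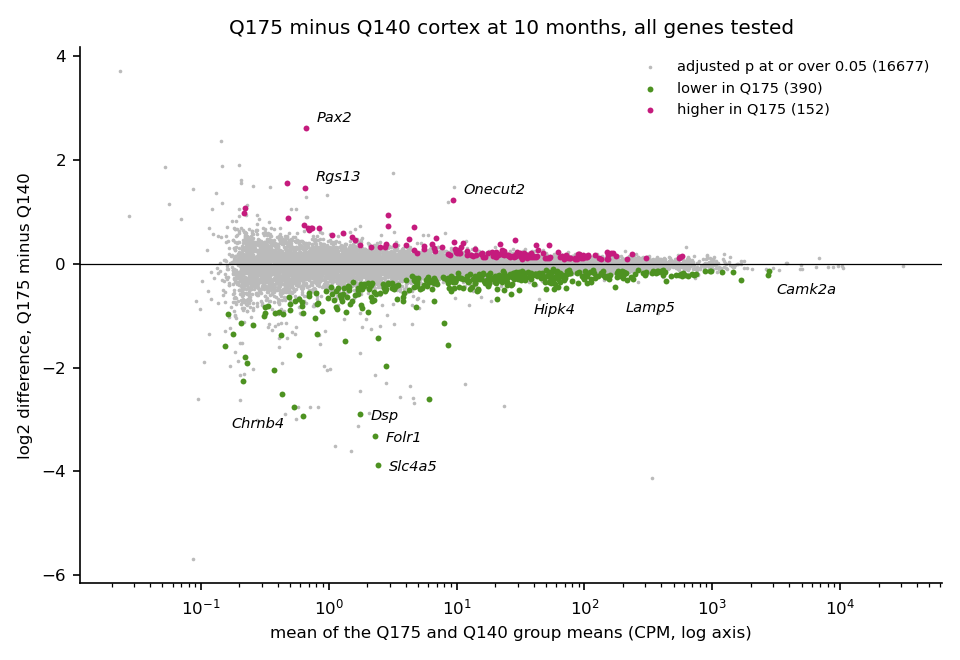
Difference of every tested gene at 10 months. The log2 difference Q175 minus Q140 is plotted on the vertical axis against the mean level in CPM on a logarithmic horizontal axis, 1 point per gene. The 152 genes that rose and the 390 that fell are coloured, and 10 genes are named in the plot. Most coloured points lie close to 0, with Pax2, Rgs13 and Onecut2 among the few far above it.

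Onecut2, Pax2 and Tal1 led the genes that rose by the smallest p. Onecut2 (chr18:64340020-64400987), a cut-homeodomain factor of liver and neuron development, had 10.2, 13.4 and 15.5 CPM in Q175 cortex and 3.48, 5.65 and 7.01 CPM in Q140 cortex as lowest, median and highest. The lowest Q175 library, male 4, still lay above the highest Q140 library, female 2. The difference was 1.24 ± 0.11, or 2.36-fold (adjusted p = 4.6e-11), the smallest p of all genes. In the shorter alleles and the wild type of the same age Onecut2 averaged 5.12 CPM in the wild type, 5.29 in Q20, 5.61 in Q80, 5.71 in Q92, 5.17 in Q111 and 5.59 ± 1.03 in Q140, against 13.2 ± 1.93 in Q175 (SD, n = 8). Its level was therefore raised at the longest allele and lay near the wild-type level in every other.

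Pax2 (chr19:44756045-44837871), a paired-box factor that patterns midbrain, eye and kidney, was scarce, with 0.698, 0.936 and 2.13 CPM in Q175 and 0.033, 0.183 and 0.314 CPM in Q140. Every Q175 library lay above every Q140 library, and Q175 females 3 and 4 were the highest. The difference was 2.62 ± 0.31, or 6.16-fold (adjusted p = 1.3e-07). Its mean was between 0.189 and 0.234 CPM in the wild type and in Q20, Q80, Q92 and Q111.

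Tal1 (chr4:115056426-115071755), a basic helix-loop-helix factor of blood formation and of midbrain inhibitory neurons, had 2.67, 3.52 and 5.61 CPM in Q175 and 1.55, 2.04 and 2.28 CPM in Q140. The groups did not overlap, and Q175 females 1 and 4 were the highest. Tal1 rose by 0.95 ± 0.12 on the log2 scale (adjusted p = 4e-07). Onecut1, the paralogue of Onecut2, had 0.17, 0.687 and 1.06 CPM in Q175 against 0, 0.168 and 0.659 CPM in Q140, which overlap, and passed at 1.56 ± 0.38 (adjusted p = 0.011). Zfp503, a zinc-finger repressor of striatal development, rose by 0.74 ± 0.12 with 2.45, 3.47 and 5.06 CPM in Q175 and 2.05, 2.14 and 2.43 CPM in Q140, where the lowest Q175 library lay just above the highest Q140 library. Of the 17 developmental transcription factors tested, of 28 listed, these 3 of the list rose (Onecut2, Pax2 and Onecut1) and none fell. Over all genes tested 0.883% rose and 2.26% fell. The list's median was -0.08, against -0.002 over all genes tested, and the count was also 3 without Q140 female 3 and without the libraries high in choroid plexus genes.

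Chromatin genes of the Polycomb system, which keeps developmental genes silent through histone marks, were also among the 12 leading genes that rose. Sfmbt2 (chr2:10370510-10595253), a Polycomb protein that binds methylated histones, had 4.94, 5.71 and 6.91 CPM in Q175 and 2.36, 3.51 and 4.7 CPM in Q140. No Q175 library fell into the Q140 range, and the lowest Q140 value was that of female 3. Sfmbt2 rose by 0.71 ± 0.10 (adjusted p = 5.7e-06). Cbx8 (chr11:119036305-119040969), a chromobox subunit with which Polycomb repressive complex 1 reads histone H3 methylation, had 9.49, 11 and 12.5 CPM in Q175 and 7.61, 8.03 and 9.31 CPM in Q140. The groups did not overlap, and the difference was 0.42 ± 0.07 (adjusted p = 4.6e-05). Of the 28 Polycomb and chromatin genes tested, 2 rose, Cbx8 among them, and none fell, against 0.883% and 2.26% of all genes tested. Cbx2, of the same family as Cbx8, differed by 0.25 without passing (adjusted p = 0.15), 26 of the 28 differences were positive, and the list's median was 0.05, against -0.002 over all genes tested. The count was also 2 without Q140 female 3 and without the libraries high in choroid plexus genes.

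The remaining leaders among the genes that rose were of mixed function. Gng4 (chr13:13784059-13827896), a G-protein gamma subunit, had 55.1, 57.4 and 65.3 CPM in Q175 and 43.7, 45.1 and 50 CPM in Q140, and rose by 0.36 ± 0.05 (adjusted p = 4.7e-06). Rgs13 (chr1:144138654-144177372), a regulator that shortens G-protein signals, had 0.688, 0.936 and 1.33 CPM in Q175 and 0.262, 0.35 and 0.475 CPM in Q140, and rose by 1.47 ± 0.23, or 2.77-fold (adjusted p = 1.8e-05). Neither gene's groups overlapped. Lin28b (chr10:45376620-45486395), an RNA-binding protein that blocks maturation of let-7 microRNAs, had 10.8, 12.9 and 14.5 CPM in Q175 and 8.48, 9.64 and 11.3 CPM in Q140, and rose by 0.41 ± 0.06 (adjusted p = 1.3e-05). Here the highest Q140 library, female 2, reached into the Q175 range. Dpysl3, a protein of growing axons, rose by 0.27 and Pogz, a zinc-finger protein that binds heterochromatin protein, by 0.17. Without the libraries high in choroid plexus genes, which leaves 3 Q140 libraries, Gng4 differed by 0.29, Rgs13 by 1.30, Lin28b by 0.32, Dpysl3 by 0.21 and Pogz by 0.13, and none of the 5 passed. Col12a1, a collagen, and Polr2a, the large subunit of RNA polymerase II, rose by 0.45 and 0.19 as members of their lists (Polr2a by 0.15 without Q140 female 3, adjusted p = 0.078), and Optn, an autophagy receptor among the partners of huntingtin, by 0.24.

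**Figure D2:**
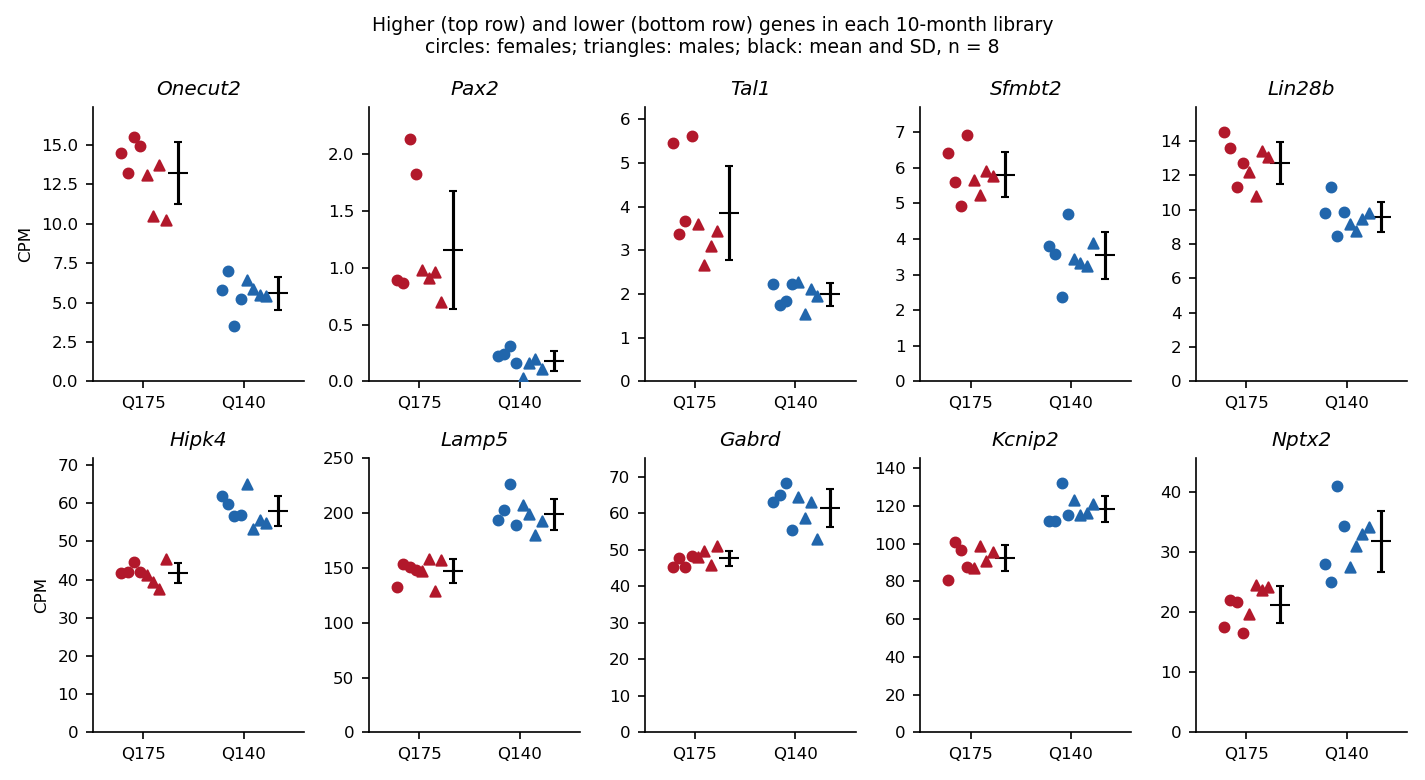
CPM of 10 genes in each 10-month library, with Q175 left of Q140 in each panel. Circles are females and triangles are males, and the bar and line show mean ± SD of 8 libraries. The upper row holds Onecut2, Pax2, Tal1, Sfmbt2 and Lin28b, which were higher in Q175, and the lower row Hipk4, Lamp5, Gabrd, Kcnip2 and Nptx2, which were lower; apart from Lin28b the groups do not overlap.

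Hipk4 and Lamp5 led the genes that fell by the smallest p. Hipk4 (chr7:27523267-27531175), a member of the homeodomain-interacting protein kinases, had 37.4, 41.7 and 45.4 CPM in Q175 and 53.2, 56.7 and 65.1 CPM in Q140. The groups were far apart, with Q175 male 4 the highest of its group. The difference was -0.47 ± 0.05, or 0.72-fold (adjusted p = 7.8e-09). Across the alleles of 10 months Hipk4 averaged 66.7 CPM in the wild type, 64.2 in Q20, 67.2 in Q80, 64.9 in Q92, 61.3 in Q111, 58 ± 3.97 in Q140 and 41.7 ± 2.59 in Q175 (SD, n = 8), so that the Q140 mean already lay under those of the shorter alleles.

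Lamp5 (chr2:136052239-136069917), a lysosome-associated membrane protein of upper-layer pyramidal neurons and of a class of interneurons, had 129, 150 and 158 CPM in Q175 and 180, 196 and 227 CPM in Q140. All Q175 libraries lay below all Q140 libraries, and the difference was -0.44 ± 0.06 (adjusted p = 4e-07). Its means were 215 CPM in the wild type, 216 in Q20, 233 in Q80, 225 in Q92 and 218 in Q111. Gabrd (chr4:155384980-155398112), the delta subunit of GABA-A receptors outside synapses, had 45.3, 47.9 and 51.1 CPM in Q175 and 53, 63 and 68.4 CPM in Q140, with no overlap, and fell by 0.36 ± 0.05 on the log2 scale (adjusted p = 4.9e-07).

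Kcnip2 (chr19:45791839-45816061), an auxiliary subunit of A-type potassium channels, had 80.5, 93.1 and 101 CPM in Q175 and 112, 116 and 132 CPM in Q140, and differed by -0.36 ± 0.05 (adjusted p = 1.1e-06). Camkk2, a kinase that activates AMPK and CaM kinases, had 207, 212 and 234 CPM in Q175 and 237, 254 and 269 CPM in Q140, and differed by -0.25 ± 0.03 (adjusted p = 2.3e-06). In both genes the Q175 libraries lay below all Q140 libraries, though Q175 male 4 came close for Camkk2. Gpr153, an orphan receptor, averaged 11.8 ± 1.13 CPM in Q175 and 17 ± 1.35 CPM in Q140 (SD, n = 8), a difference of -0.53. Gpd1, the glycerol-3-phosphate dehydrogenase of the cytosol, averaged 71 ± 5.01 CPM in Q175 and 88.7 ± 6.78 CPM in Q140, a difference of -0.32. Ttll11, a tubulin polyglutamylase, differed by -0.24, with ranges that did not overlap in any of these 3 genes. Of the 12 leading genes that fell, Gabrd and Gpr153 did not pass without the libraries high in choroid plexus genes, where they differed by -0.27 ± 0.07 and -0.41 ± 0.10.

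The other leading genes that fell were scarce transcripts known mostly from other tissues: Alox12b, a lipoxygenase of skin, differed by -0.82, Arr3, the arrestin of cone cells, by -0.86, Tnfrsf8, the CD30 receptor of lymphocytes, by -0.93, and Slc23a3, of the ascorbate transporter family, by -1.35. Their Q140 means were between 1.17 and 6.13 CPM. Plk5, a polo-like kinase without a full kinase domain that is found in neurons, had 3.81, 4.62 and 6.8 CPM in Q175 and 7.72, 10.9 and 14.8 CPM in Q140 without overlap, and differed by -1.14 ± 0.16 (adjusted p = 3.3e-06). Of the 24 leading genes, 12 each way, the ranges did not overlap at 21, the exceptions being Lin28b, Alox12b and Tnfrsf8. Over all genes tested the share was 0.639%, but the 24 were chosen by the smallest p in these same libraries, which favours separate ranges.

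Promoters of 2 leading genes that rose (Pax2 and Tal1) and 2 that fell (Hipk4 and Kcnip2) are shown so that their sequences can be compared. Each line gives the 250 bases before the RefSeq start (GRCm38.p6), 5′ to 3′ on the strand of the gene, with CG dinucleotides, the sites of DNA methylation, in capitals. Pax2 (chr19:44755502-44755751, plus strand) holds 20 of them, Tal1 (chr4:115056176-115056425, plus strand) 6, Hipk4 (chr7:27523011-27523260, plus strand) 4 and Kcnip2 (chr19:45816064-45816313, minus strand) 15.
Pax2: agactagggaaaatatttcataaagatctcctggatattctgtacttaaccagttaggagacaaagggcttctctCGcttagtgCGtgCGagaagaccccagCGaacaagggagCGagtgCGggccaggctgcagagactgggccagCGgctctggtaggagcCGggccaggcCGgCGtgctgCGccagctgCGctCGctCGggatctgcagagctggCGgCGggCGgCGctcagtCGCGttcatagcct
Tal1: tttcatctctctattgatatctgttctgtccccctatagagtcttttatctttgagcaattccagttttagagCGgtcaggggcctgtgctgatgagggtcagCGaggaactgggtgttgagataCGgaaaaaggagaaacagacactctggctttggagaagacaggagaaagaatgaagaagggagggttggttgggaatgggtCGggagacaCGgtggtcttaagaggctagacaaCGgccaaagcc
Hipk4: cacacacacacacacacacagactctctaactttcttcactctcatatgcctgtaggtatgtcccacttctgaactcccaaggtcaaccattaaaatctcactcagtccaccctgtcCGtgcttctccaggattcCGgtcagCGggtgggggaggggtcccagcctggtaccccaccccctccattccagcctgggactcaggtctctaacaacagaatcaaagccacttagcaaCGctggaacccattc
Kcnip2: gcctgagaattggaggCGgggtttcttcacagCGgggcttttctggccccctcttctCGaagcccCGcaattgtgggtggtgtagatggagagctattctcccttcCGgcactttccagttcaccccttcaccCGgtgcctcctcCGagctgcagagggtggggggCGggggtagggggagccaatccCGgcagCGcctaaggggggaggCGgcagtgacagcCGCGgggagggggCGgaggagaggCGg

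In each direction the promoters shown differed in their count of CG. They were picked as examples and give no result by direction. The 15 CG of Kcnip2 equal the median of all tested genes. Of the 152 genes that rose, 125 had a RefSeq promoter and held a median of 13 CG (quartiles 7 and 21). The 273 of 390 that fell held a median of 12 (6 and 19), and the 12521 of all tested genes held 15 (8 and 22). Promoters with 4 CG or fewer made up 14.4%, 18.7% and 14.8% of these sets. The cAMP response element TGACGTCA, which reads the same on both strands, was found in 5 (4%) of the promoters of genes that rose, in 3 (1.1%) of those of genes that fell and in 324 (2.59%) of all. These are matches of letters in the window and no more.

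Over all genes tested 2.26% fell and 0.883% rose, and the list counts that follow stand beside these shares. Of 14 tested genes that mark the upper cortical layers, 5 fell and none rose, with 13 of 14 differences negative and a median of -0.085. These were Lamp5, Stard8, a GTPase-activating protein, at -0.31, Nptx2, a secreted pentraxin that clusters glutamate receptors, at -0.59, Wfs1, a membrane protein of the endoplasmic reticulum, at -0.44, and Rasgrf2, a Ras exchange factor, at -0.16. Nptx2 had 16.5, 21.9 and 24.5 CPM in Q175 and 25.1, 32.1 and 41.1 CPM in Q140, with no overlap, the highest value being that of Q140 female 3. The count was 4 without the libraries high in choroid plexus genes and 5 without Q140 female 3. In the deep layers 1 of 16 genes fell (Cplx3), and of 12 general markers of glutamatergic neurons 1 fell, Camk2a, the alpha subunit of CaM kinase II. Camk2a had 2390, 2560 and 2640 CPM in Q175 and 2660, 2900 and 3250 CPM in Q140, groups that just did not overlap (-0.21 ± 0.04, adjusted p = 0.00025).

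The upper layers, with 5 of 14, held the larger share, and 2.26% of all genes tested fell. Signalling through cAMP, calcium and opioids, a longer list, held the largest count of the 41 lists, 9 of 34 genes that fell and none that rose, with a median of -0.053. Among them were the kinases Camkk2, Camkk1 and Camk2a, the inositol trisphosphate kinase Itpka, the phosphatase regulators Ppp1r1b (DARPP-32) and Ppp1r1a, the calcineurin subunit Ppp3ca and prodynorphin (Pdyn). Ppp1r1b had 43.1, 47.6 and 62.3 CPM in Q175 and 59.3, 64.8 and 85.7 CPM in Q140. The groups overlapped through Q175 female 3, and the difference was -0.47 ± 0.08 (adjusted p = 0.00025). The count was 8 without Q140 female 3. Without the libraries high in choroid plexus genes 3 passed, while the list's median was -0.132 and Camk2a and Camkk2 each differed by -0.27. Among markers of striatal projection neurons, the cells of the striatum that lies under the cortex, 5 of 22 fell (Rasd2, Ppp1r1b, Scn4b, Pdyn and Arpp19), 4 without Q140 female 3 and 0 without the libraries high in choroid plexus genes. With only 3 Q140 libraries left in that last setting, the differences were -0.29 for Rasd2 (-0.29 with all libraries), -0.42 for Ppp1r1b (-0.47) and -0.34 for Scn4b (-0.37), and the list's median was -0.125, against -0.034 with all. The dopamine and adenosine receptors that define these cells differed by 0.03 (Drd1), -0.15 (Drd2) and 0.07 (Adora2a) without passing, and the list summed to between 953 and 1120 CPM in Q175 and between 1020 and 1220 CPM in Q140. Their part in the fall of Ppp1r1b, Scn4b and Pdyn was not tested.

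Ion channels and receptors gave small counts of genes that fell. Over all genes tested 2.26% fell and 0.883% rose, so lists of 18 to 55 genes can easily hold none that rose. Of 55 potassium channel genes 5 fell (Kcnip2, Kcnh4, Kcnk4, Kcnk1 and Kcnv1) and none rose. Kcnh4, a slow voltage-gated channel, had 14.3, 16.8 and 19.8 CPM in Q175 and 20.4, 23.3 and 28 CPM in Q140 without overlap (-0.48 ± 0.08, adjusted p = 3.1e-05). The count was 4 without Q140 female 3, 2 without Q175 female 1 and 1 without the libraries high in choroid plexus genes. Of 33 sodium and calcium channel genes 3 fell: Scn4b, the beta subunit of resurgent sodium current, at -0.37, Ryr1, a calcium release channel, at -0.50, and Cacng3, an AMPA receptor auxiliary subunit, at -0.14. Of 28 glutamate receptor genes 3 fell (Gsg1l, Grm4 and Grm3), of 18 GABA receptor and transporter genes 2 (Gabrd and Slc6a11), of 28 genes of vesicle release 4 (Syt12, Vamp1, Cplx3 and Cplx2) and of 24 genes of the postsynaptic density 2 (Itpka and Ddn). None of these lists held a gene that rose. Their medians lay between -0.057 and 0.009. Without the libraries high in choroid plexus genes, where 0.474% of all genes passed, the counts were between 0 and 2. The medians lay lower there, at -0.094 for potassium channels, -0.057 for sodium and calcium channels and -0.055 for glutamate receptors. They were -0.039 for the GABA list, -0.082 for vesicle release and -0.053 for the postsynaptic density, against 0.004 over all genes in that setting. Without Q140 female 3, Cacng3 (adjusted p = 0.081), Grm3 (0.10) and Slc6a11 (0.068) did not pass. The count of the postsynaptic density was 1 without Q175 female 1 or without Q140 male 3.

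**Figure D3:**
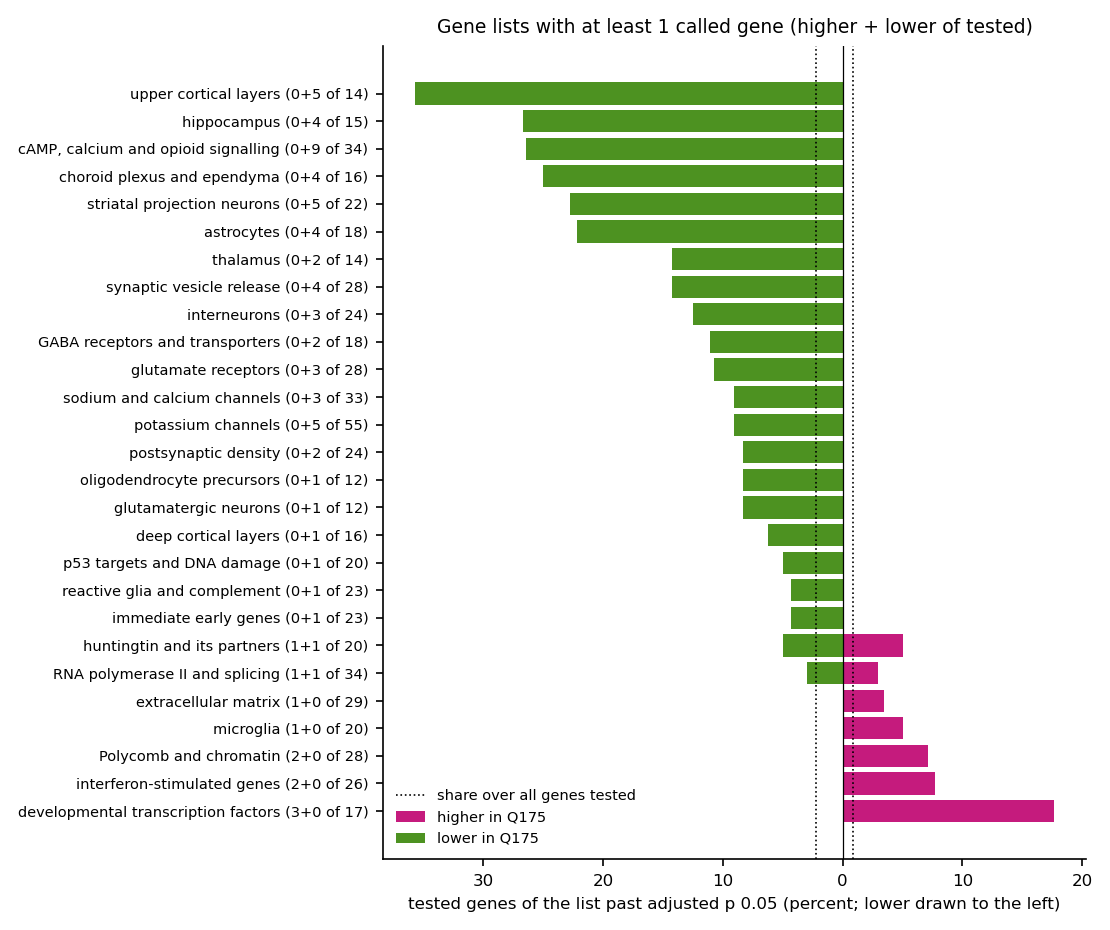
Percentage of the tested members of each gene list that passed at 10 months, with members higher in Q175 to the right of 0 and members lower in Q175 to the left. The dotted lines mark the shares of all genes tested, 0.883% higher and 2.26% lower. The upper cortical layers reach furthest to the left, with 5 of 14, and the developmental transcription factors furthest to the right, with 3 of 17.

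Of 18 astrocyte genes 4 fell (Aldoc, Aldh1l1, Glul and Atp1b2), with a median of -0.105 and 16 differences negative. Aldoc, the brain aldolase of astrocytes, ranged from 598 to 676 CPM in Q175 with a mean of 645 ± 25 CPM, and between 672 and 932 CPM in Q140 with a mean of 741 ± 84 CPM (SD, n = 8), where 1 library, Q140 female 3, was far above the rest and the ranges overlapped by a little. The count was 1 without Q140 female 3, 0 without Q175 female 1 and 0 without the libraries high in choroid plexus genes, where the median was -0.099, and the list summed to between 6650 and 7480 CPM in Q175 and between 7200 and 8010 CPM in Q140. Of 24 interneuron genes 3 fell (Dlx1, Npy and Gad1), 1 without Q140 female 3, 0 without Q175 female 1 and 0 without the libraries high in choroid plexus genes, where the median was -0.081, against -0.107 with all libraries. Gad1, which makes GABA, had 312, 329 and 356 CPM in Q175 and 338, 361 and 391 CPM in Q140, and these ranges overlapped. The interneuron peptides and binding protein Sst, Vip and Pvalb differed by -0.16, -0.17 and -0.19 without passing. No gene of myelin (22), newly forming oligodendrocytes (9), endothelium and pericytes (18) or blood (10) passed edgeR's test. Under an unadjusted p of 0.05 were 0 to 3 genes of each, against 2805 of all 17219 tested (16.3%). Microglia gave Siglech at 0.18 of 20, oligodendrocyte precursors Gpr37l1 of 12, and reactive glia Clu of 23, and none of these calls held without Q140 female 3.

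Tissue that borders the cortex moved with the groups. All 16 choroid plexus and ependyma genes had negative differences, with a median of -2.516, and 4 were called lower (Foxj1, Slc4a5, Clic6 and Folr1). With 1 library left out the count was 0 to 11. It was 0 without Q140 female 1, female 3 or male 3, and without Q175 female 1, female 3, male 2 or male 3. All 14 genes of meninges had negative differences, with a median of -0.361, and none passed. Of them 4 were under an unadjusted p of 0.05, against 16.3% of all genes tested. Hippocampal markers fell at 4 of 15 (Wfs1, Trpc6, Dsp and Cabp7), 1 of them without the libraries high in choroid plexus genes, and thalamic markers at 2 of 14 (Rgs16 and Ramp3), 0 without them. Dsp, which marks dentate granule cells, had 0.199, 0.307 and 0.755 CPM in Q175 and 0.198, 1.97 and 11.4 CPM in Q140. Q140 males 2 and 3 were highest, at 5.78 and 11.4 CPM, and Q140 females 1, 3 and 4 also lay above every Q175 library. The defining genes of liver were near 0 in all 16 libraries: without Ttr and Trf, which the choroid plexus and myelin also use, they summed to 1.56 to 2.57 CPM in Q175 and 1.76 to 2.92 CPM in Q140. The part of these tissues in the neuronal and glial differences was not tested. Without the libraries high in choroid plexus genes, 3 Q140 libraries were left and 0.474% of all genes tested passed. In that setting the lists of striatal neurons, astrocytes, interneurons and thalamus held 0 calls, the upper layers 4 and the developmental factors 3. The medians of the 4 lists without calls were -0.125, -0.099, -0.081 and -0.034 there, against -0.034, -0.105, -0.107 and -0.192 with all libraries.

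**Figure D4:**
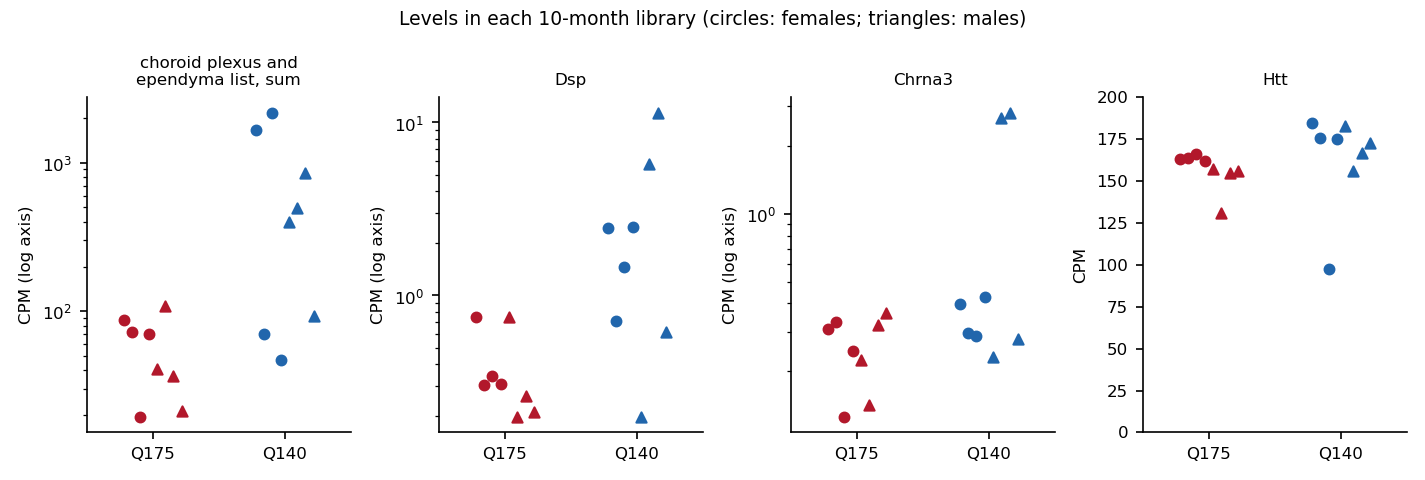
Markers of bordering tissue and Htt in the 16 libraries of 10 months, Q175 left of Q140. The choroid plexus and ependyma sum, Dsp and Chrna3 are in CPM on log axes and Htt in CPM on a linear axis, with circles for females and triangles for males. The choroid sum is 19.4 to 108 CPM in Q175 and 46.8 to 2170 CPM in Q140, and Htt is lowest in Q140 female 3.

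Stress and defence pathways changed in few genes. Of 26 interferon-stimulated genes Irf7, a transcription factor of the interferon response, rose by 0.39 and Ifit3, an antiviral protein, by 0.27, with 19 differences positive and a list median of 0.117. Irf7 had 2.67, 3.06 and 3.66 CPM in Q175 and 2, 2.24 and 2.95 CPM in Q140, which overlap, and the list's count was 1 without Q140 female 3 and 0 without Q140 female 4 or without Q175 male 1. None of the 26 cholesterol synthesis, 20 heat shock, 25 unfolded protein response, 18 clock, 25 nuclear respiratory chain, 13 mitochondrially encoded or 21 beta protocadherin genes passed edgeR's test. Under an unadjusted p of 0.05 were 0 to 4 genes of each list, against 16.3% of all genes tested. Nor did any of the 15 genes of mismatch repair, which govern the growth of CAG repeats in tissue, although 14 of the 15 differences were positive with a median of 0.073. Among 20 p53 targets Ccng1 fell, though not without Q140 female 3 (adjusted p = 0.054), and among 23 immediate early genes only Nptx2, while Fos differed by 0 and Arc by -0.34 without passing.

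The age at which the difference appears was asked by testing the same pair of alleles in other animals. At 2 months 1 of 17194 genes passed (0.00582%), Mobp, a myelin protein, at -0.33 with means of 657 ± 52.5 CPM in Q175 and 826 ± 78.4 CPM in Q140 (SD, n = 8, adjusted p = 0.018). There 296 genes (1.72%) were under an unadjusted p of 0.05, a smaller share than p-values without any difference would give. The single call at that age therefore does not show that the alleles were alike. At 6 months 1893 of 17611 passed (10.7%), 997 higher (5.66%) and 896 lower (5.09%). At that age the Q175 and Q140 libraries carried names of separate number series, so allele and series cannot be told apart. The Q140 libraries also held liver transcripts: the summed liver genes, without Ttr and Trf, were at 1.71 to 8.62 CPM in Q175 and 35.7 to 559 CPM in Q140. With the liver level as a covariate 25 genes passed, 12 higher and 13 lower.

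Of the 152 genes higher at 10 months, 114 (75%) were also higher in Q175 at 6 months and 22 passed, and of 388 tested genes that were lower 322 (83%) were lower and 98 passed, against 49.7% of all genes with a positive difference. With the liver covariate the shares were 71.7% and 69.6%, with 1 and 6 genes passing. At 2 months they were 69.3% and 62.1%.

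Leading genes differed in the ages at which Q175 and Q140 lay apart. Onecut2 averaged 6.07 ± 1.04 CPM in Q175 and 5.81 ± 0.733 CPM in Q140 at 6 months, and 4.6 ± 0.522 against 4.75 ± 0.577 CPM at 2 months (SD, n = 8). Its difference was 0.06 at 6 months and -0.05 at 2 months, and the change of the difference with age passed (10 minus 6 months 1.18, adjusted p = 1.9e-06, and 10 minus 2 months 1.29, adjusted p = 3.8e-07). Pax2 averaged 0.253 ± 0.0995 CPM in Q175 and 0.215 ± 0.0702 CPM in Q140 at 6 months, and its difference grew by 2.41 between 6 and 10 months (adjusted p = 0.0017). Sfmbt2 had another course: at 6 months its means were 5.89 CPM in Q175 and 5.71 CPM in Q140 and at 2 months 5.6 and 5.3 CPM, all near the 5.8 CPM of Q175 at 10 months, while every other group of 10 months averaged between 3.46 and 4.09 CPM. The levels of different ages come from separate sets of libraries.

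Other genes already differed at 6 months, an age at which allele and library series cannot be told apart. The values below are without the liver covariate, with which 25 genes in all passed at 6 months. Rgs13 averaged 0.723 ± 0.162 CPM in Q175 and 0.325 ± 0.113 CPM in Q140 at 6 months (1.15, adjusted p = 3.1e-05). Hipk4 averaged 49.1 CPM in Q175 and 57.6 CPM in Q140 at 6 months (-0.23, adjusted p = 9.9e-05) and 63.1 against 63.5 CPM at 2 months. Its log2 differences were thus -0.01, -0.23 and -0.47 at 2, 6 and 10 months. Lamp5 averaged 134 CPM in Q175 and 157 CPM in Q140 at 6 months (-0.22, adjusted p = 0.0023) and 183 against 181 CPM at 2 months, and Plk5 15.1 and 19.8 CPM at 6 months.

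The test of the difference of differences counted 202 of 17389 genes for 10 minus 6 months (1.16%), with 67 higher (0.385%) and 135 lower (0.776%), and 128 for 10 minus 2 months (0.736%), with 29 higher (0.167%) and 99 lower (0.569%). Of the 24 leading genes, which were chosen by the 10-month difference that both tests contain, 10 and 22 passed them. All 12 leading genes that fell passed for 10 minus 2 months, among them Hipk4 at -0.46 (adjusted p = 2e-06), Lamp5 at -0.45 (8.2e-06) and Gabrd at -0.40 (4.4e-05). The first of these counts rests on single libraries: it was 77 without Q140 female 3, 87 without Q175 female 1 and 402 without Q140 female 4.

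**Figure D5:**
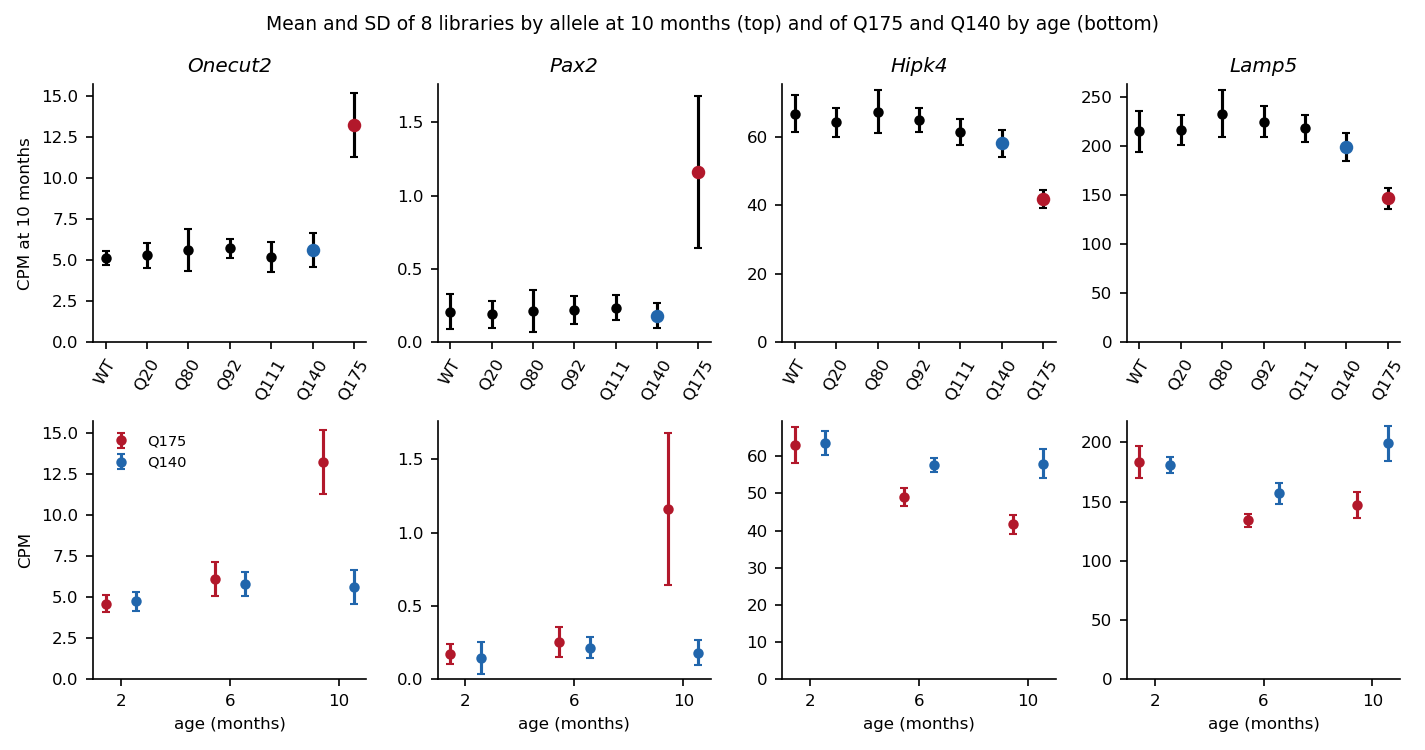
Levels of Onecut2, Pax2, Hipk4 and Lamp5 in CPM, as mean ± SD of 8 libraries. The upper row gives the wild type and the alleles from Q20 to Q175 at 10 months, and the lower row Q175 and Q140 at 2, 6 and 10 months. Onecut2 and Pax2 are raised at Q175 and 10 months, while Hipk4 and Lamp5 are lower at Q175 and already below Q140 at 6 months.

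The step from Q140 to Q175 was also set against the step from Q111 to Q140 at 10 months. The difference between the steps passed at 10 of 17219 genes (0.0581%). The 6 with the larger rise at the last step (0.0348%) were Onecut2 (1.12, adjusted p = 0.0097), Pax2 (2.98, 0.025), Tal1 (1.11, 0.012), Sfmbt2 (0.92, 0.015), Lin28b (0.57, 0.011) and Gng4 (0.43, 0.032). The 4 with the larger fall (0.0232%) were Alox12b, Gpd1, Chrna3 and Chrnb4, and the nicotinic receptor subunits Chrna3 and Chrnb4 were high in Q140 males 2 and 3. Both steps use the Q140 libraries, so a deviation of that group enters both. Against Q20 at 10 months, with the same Q175 and Q140 libraries as above, 1310 genes passed for Q175 (7.61%) and 22 for Q140 (0.128%). Among the 24 leading genes all passed for Q175, and Gpr153 passed for Q140. These 24 were chosen by the difference between the same Q175 and Q140 libraries, so their counts here are not a separate test. Onecut2 differed from Q20 by 1.32 ± 0.11 in Q175 and by 0.08 ± 0.12 in Q140, Tal1 by 0.64 and -0.31, Hipk4 by -0.62 and -0.15, Lamp5 by -0.55 and -0.12, and Htt by -0.33 ± 0.08 (adjusted p = 0.0046) and -0.27 ± 0.08 (adjusted p = 0.32).

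The difference between alleles was asked in each sex. No gene of 17559 passed the test of females minus males with edgeR's quasi-likelihood test (0%), and DESeq2 called 1. With edgeR 997 genes (5.68%) were under an unadjusted p of 0.05. Onecut2 was higher by 1.43 ± 0.13 in females and 1.04 ± 0.17 in males, Pax2 by 2.57 and 2.73, and Hipk4 lower by -0.47 and -0.48. Aldoc differed by -0.34 in females and -0.06 in males and Glul by -0.29 and -0.03, the females including Q140 female 3. Fitted alone, the females gave 105 genes higher and 352 lower and the males 5 and 8, which was not a test of the difference between the sexes.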

How the data were processed

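PolyA RNA of cortex was measured in 168 libraries, of which the 56 of 10 months entered the main fit, with 48 libraries of Q175 and Q140 at 3 ages for the comparisons of ages. The authors deposited estimated counts per gene, of which 17.7% are not whole numbers, and a second table of FPKM values per gene from the same libraries. Per the submitters' processing notes CASAVA 1.8.2 was used, while for aligner, quantifier, build and annotation the entry is: not given in the sources used here. Estimated counts split reads between similar genes, so paralogues and overlapping genes are less certain, and strand use is not given.

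The expected counts were rounded and tested with edgeR 4.0.16 in R 4.3.3: filterByExpr by group (minimum count 10, minimum total count 15), TMM scaling, robust quasi-likelihood F tests with sex as a covariate, 2-sided, Benjamini-Hochberg adjustment over all genes tested, threshold 0.05. All alleles of an age shared 1 estimate of the spread (biological coefficient of variation 0.0981 at 10 months), and a standard error is the log2 difference divided by the square root of F. The script was checked on simulated counts. Alternatives were DESeq2 1.42.0, limma 3.58.1 on log2 FPKM plus 0.1 or 1, other scaling and filters, covariates, single sexes and leaving out libraries. Choroid plexus and liver settings were chosen after the data were seen.

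Named genes were Htt, the 12 each way with the smallest p, up to 3 passing members of each of 41 lists and 4 each way in the other comparisons, without clone-named models, and members that define a list. A gene chosen otherwise is said to be so. A few genes that the rule names are not reported here. The members and lists were chosen with earlier results of these data known. Symbols and positions come from GENCODE M21 (GRCm38), and 1486 of 39179 IDs had no symbol. Promoters come from RefSeq (GRCm38.p6). Totals ranged from 29338689 to 47353341 over the series. A check of all 56 pairs of libraries within the Q175 and Q140 groups found no duplicates (lowest chi-square per degree of freedom 4.06).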

Additional observations from a re-analysis of the deposited data

Results flagged for a closer look

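In 5 of 50 groups of 8 libraries tested, the gap from 1 library to the nearest other exceeded 0.526 of the range of its group, Dixon's 95% limit, which chance exceeds in about 1 group in 20. Htt was 131 CPM in Q175 male 2, the lowest of its group, with a gap of 0.693 of the range. The library of Q140 female 3 gave 3 of the 5: Htt was its group's lowest at 97.3 CPM (gap 0.672), Pogz its lowest at 59.4 CPM (gap 0.635) and Slc23a3 its highest at 2.15 CPM (gap 0.63). Camkk2 was 234 CPM in Q175 male 4, the highest of its group (gap 0.616).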

How the results depend on the processing

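All 24 leading genes kept their direction under each of 31 alternatives, and all passed under each except with males only (7 passed) and without the libraries high in choroid plexus genes (17 passed). Every alternative used the libraries in which the 24 were chosen by the smallest p, or a part of them, which favours both results. Keeping direction was not particular to the 24. Of the 542 genes that passed at 10 months, 527 kept theirs with the 16 libraries alone, the fewest under any alternative. The counts at 10 months, 152 higher and 390 lower, became 86 and 307 without a filter, 66 and 224 with the 16 libraries alone and 44 and 172 with the L token of the library names as a term. They became 72 and 244 with a liver covariate. That covariate averaged all 20 liver genes, among them Ttr and Trf of choroid plexus and myelin, so it does not measure liver alone. They were 5 and 8 in males, 17 and 66 without the choroid-high libraries and 55 and 191 with the choroid level as a covariate (the last pair chosen after seeing the data). Of the calls 28% were higher, against 40.7% and 43.7% with limma on log2 FPKM plus 0.1 and plus 1. Leaving out 1 library gave 85 to 177 higher and 261 to 479 lower, the lowest without Q140 female 3 (85 and 276), Q175 female 1 (90 and 261) and Q175 male 3 (95 and 311). At 6 months the count of 1893 was 1191 with the 16 libraries alone, 25 with the liver covariate (added after seeing the data) and 1254 to 2187 with 1 library left out (1254 without Q175 female 2). At 2 months it was 3 with DESeq2, 2 with the 16 libraries alone and 0 to 1 with 1 library left out. For 10 minus 6 months 202 became 496 with DESeq2, 77 without the library of low correlation and 77 to 402 with 1 library left out (besides those named above, 341 without Q140 male 1, 340 without Q140 male 4 and 115 without Q175 female 2). For 10 minus 2 months 128 became 210 with DESeq2 and 81 (without Q140 female 1) to 145. The test of the sexes gave 1 with DESeq2 and 0 to 1 with 1 library left out. The comparison of steps gave 5 (without Q140 male 3) to 19 (without Q140 male 4). Htt reversed in females alone, at 0.043 (adjusted p = 0.874). The causes were not tested. Same-numbered libraries of the 8 pairs correlated at -0.2 to 0.182, so the numbers were not taken as pairs, and a replicate block gave 129 higher and 360 lower at 10 months, 2438 at 6 months, 1 at 2 months, 212 and 130 for the comparisons of ages, 0 for the sexes and 9 for the steps. The L tokens of the groups overlap in 2 Q175 and 3 Q140 libraries, too few for values within a token. Transcripts under about 1 CPM, such as Pax2, Rgs13 and Onecut1, rest on few reads.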

Other observations

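Genes chosen after their values were seen are given here as values. The class I histocompatibility gene H2-T23 averaged 15 ± 1.42 CPM in Q175 and 20 ± 3.29 CPM in Q140 (SD, n = 8), a difference of -0.42 (edgeR's quasi-likelihood test, adjusted p = 0.0002), and its relatives H2-T22 and H2-Bl differed by -0.17 and -0.75. These genes are close copies of each other, among which the counting can split reads.

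Genes of the habenula stood out in Q140 males 2 and 3. The nicotinic receptor subunit Chrna3 was 0.125 to 0.364 CPM in Q175, and 2.65 and 2.81 CPM in Q140 males 2 and 3. Chrnb4 reached 0.263 CPM at most in Q175, and 2.04 and 4.3 CPM in those males, and the receptor Gpr151 1.12 CPM at most in Q175, and 5.26 and 4.39 CPM in them.

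At 6 months the genes that passed included ribosomal protein genes, with Rps20 at 120 ± 7.8 CPM in Q175 and 103 ± 2.1 CPM in Q140 (0.22) and Rps21 at 174 ± 10.9 and 148 ± 4.6 CPM (0.23). Against shares of 5.66% higher and 5.09% lower over all genes at that age, 14 of 25 nuclear respiratory chain genes rose and 1 fell, and 7 of 20 microglia genes rose, while 12 potassium channel, 8 upper-layer and 7 astrocyte genes fell. With the liver level as a covariate only 25 genes in all passed there. Liver genes such as Cps1, of the urea cycle, averaged 0.411 ± 0.0671 CPM in Q175 and 5.28 ± 3.88 CPM in Q140 there.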
